A study of Mus musculus and Acomys cahirinus with 25 samples.

Results

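The comparison set the epidermis of the lab mouse wound center against the dermis beneath it, at post-wound day (PWD) 14. It rested on 4 of the 25 libraries of the series, 2 of wound center epidermis and 2 of wound center dermis, chosen by their labels for tissue, wound region, genotype and day. The study asked what sets where new hair follicles form in wounds of lab mice and spiny mice, and it sequenced RNA of wound epidermis and dermis from both species and of wound dermis from mice lacking Twist1 in keratinocytes. All 4 libraries came from wild-type C57BL/6J mice, 4 weeks old, wounded by removal of 1 x 1 cm of full-thickness dorsal skin that was then left to close by itself. No allele was deleted in either group, and the labels name no treatment beyond wounding. The wound center was taken with a punch, and epidermis and dermis were pulled apart by hand under a dissecting microscope. The labels do not say whether the libraries were made from separate mice, nor whether an epidermis and a dermis library came from the same wound, so the p-values measure the spread between these libraries only. The epidermis libraries were sequenced as paired ends and the dermis libraries as single ends, so tissue and read type cannot be told apart in this comparison.

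The epidermis is a stratified epithelium. Its basal keratinocytes divide on a basement membrane, and their daughters stop dividing, exchange one set of keratins for another and end as cornified cells held together by desmosomes and sealed by crosslinked proteins and lipids. The dermis of a healing wound is a collagen-rich tissue of fibroblasts, vessels, nerves and immune cells. New follicles begin when the epidermis thickens into a placode above a condensate of dermal cells, with ligands of the Wnt, fibroblast growth factor, bone morphogenetic protein and hedgehog families passing between the layers.

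Reads assigned to genes numbered 67913709 and 55279371 in epidermis and 22067305 and 19413261 in dermis. Levels are counts scaled to the size of the library (CPM) and by the trimmed mean of M values (TMM CPM), and they depend on transcript length, so they are compared between libraries and not between genes. The epidermis pair agreed more closely than the dermis pair (Pearson's r of log2 CPM across genes 0.994 and 0.893). Transcripts of the Y chromosome were present in all 4 libraries. In bulk tissue, fewer cells of a type and less RNA per cell cannot be told apart.

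Of 14329 genes tested with the quasi-likelihood test of edgeR, 8038 (56.1%) passed a Benjamini-Hochberg false discovery rate (FDR) of 0.05, 4203 (29.3%) higher in epidermis and 3835 (26.8%) higher in dermis. Counts of list members called, given below, are to be read beside both shares. Scaling by library size alone turned the split to 2437 against 6154, and upper quartile scaling to 3058 against 5076. The median log2 fold change of all genes was 0.05 with TMM scaling, -0.73 with library size alone and -0.41 with upper quartile scaling. Without the one epidermis library 2795 and 2160 genes were called, and without the other 2793 and 2106. At a difference of at least 4-fold, 1934 genes (13.5%) were higher in epidermis and 2631 (18.4%) higher in dermis. In 11728 of the tested genes (81.8%) both libraries of one tissue lay above both of the other, so groups that do not overlap were the rule. Absence was more common on the dermal side. Of the 2255 tested genes that averaged 100 CPM or more in epidermis, 97 had no more than 3 counts in either dermis library, whereas 0 of the 1178 genes at that level in dermis were at or under 3 counts in both of the deeper epidermis libraries. Of the 8546 genes at 10 CPM or more in epidermis, 286 were at this floor in dermis, and in the opposite direction 15 of 9098 were.

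**Figure D1:**
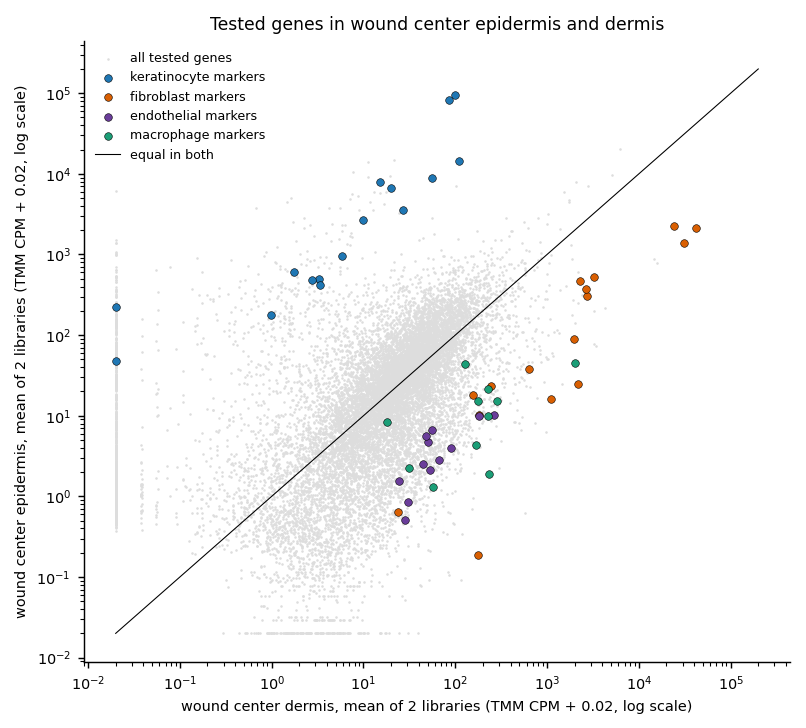
Mean TMM CPM of each tested gene in the 2 epidermis libraries (vertical) against the 2 dermis libraries (horizontal), both on log axes with 0.02 added, with 4 sets of cell type markers in colour. The 16 keratinocyte markers lie above the line of equality, 2 of them at or under 3 counts in both dermis libraries, and the 16 fibroblast and 12 endothelial markers lie below it.

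The cell type markers matched the labels of both tissues. All 16 keratinocyte markers rose in epidermis (median log2 fold change 7.81, against 0.05 over all genes tested), and their summed level was 219827 to 230200 CPM in epidermis against 364 to 513 CPM in dermis. Keratin 14 (Krt14), which marks basal keratinocytes, stood at 13060 and 15740 CPM in the epidermis libraries and at 191 and 28.4 CPM in the dermis libraries (log2 fold change 7.04, standard error [SE] 1.12, edgeR FDR 0.00468). All 16 fibroblast markers were higher in dermis (median -4.11), as were all 12 endothelial markers (median -4.34), 10 of 11 tested macrophage markers (median -4.21) and 7 of 8 tested mast cell markers (median -5.35). Of the Schwann cell list, 8 of 10 were higher in dermis, and Erbb3, which keratinocytes also use, was higher in epidermis. Most skeletal muscle, melanocyte, neutrophil and hair shaft markers were too low to test: of 12, 8, 10 and 11 in the files, 2, 2, 3 and 1 passed the filter on low counts. Of 10 adipocyte markers, 3 were tested, and 2 of these were higher in dermis (median -5.30). Adipoq and Lep, which define adipocytes, were at 0 in all 4 libraries. The third tested marker, Fabp4, a lipid-binding protein of several cell types, was higher in epidermis at 564 and 729 CPM against 107 and 80.6 CPM. Langerhans cells reside in the epidermis, and their defining receptor Cd207 (5.09 and 4.19 CPM against 2.6 and 3.47 CPM) did not pass the test, whereas 8 of the 10 antigen-presenting cell markers were higher in dermis. T cell markers were mixed, with Cd3e higher in epidermis, Cd4 and Thy1 higher in dermis and 5 of 8 not called.

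Dermal transcripts were present in the epidermis at a few percent of their dermal level. Over the 16 fibroblast markers, the median share of the dermal level was 6.47% in the one epidermis library and 5.14% in the other, and single markers ranged from 0.0135% (Mfap5) to 22.1% (Col6a2). With scaling by library size alone the medians were 3.76% and 2.98%. Keratinocyte markers in dermis had a median share of 0.265% and 0.238% of their epidermal level. At the wound margin, measured in other libraries, the medians were 2.07% and 1.14% for fibroblast markers in epidermis, and 3.21% and 5.13% for keratinocyte markers in dermis. Shares were not even across the matrix genes: Lum stood at 1.18% and 1.11% of its dermal level and Col6a1 at 17.8% and 14.0%.

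**Figure D2:**
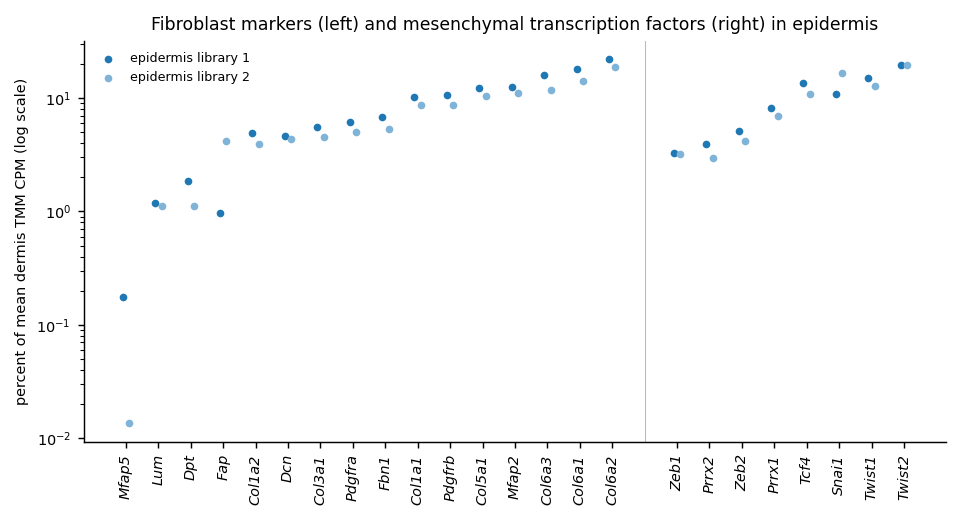
Level of each fibroblast marker (left) and of the 8 mesenchymal transcription factors called higher in dermis (right) in the 2 epidermis libraries, as percent of the mean dermis TMM CPM, on a log axis. Twist1 and Twist2 lie at 12.9% to 19.7%, within the range of the collagen VI genes, and Lum, Dpt and Mfap5 lie below 2%.

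By the rule of size used here, the 12 genes that led toward epidermis were Hrnr, Kprp, Serpina12, Cnfn, Krt78, Them5, Il1f5, Tgm3, Serpinb12, 2310050C09Rik, Lce1c and Lce1d, and each had 0 counts in both dermis libraries. Hornerin (Hrnr), a filaggrin-like protein of the cornified cell, was at 6494 and 5756 CPM in epidermis, at least 53559-fold higher than the level that 3 counts would give in dermis. The crosslinking enzyme Tgm3 stood at 1019 and 979 CPM in epidermis, at least 8735-fold above that floor. Cornifelin (Cnfn) stood at 1261 and 1482 CPM and was at least 11994-fold higher. Because these genes were at 0 in dermis, only the bound can be read from them.

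The 12 genes that led toward dermis were Matn4, Mfap5, Ogn, Kera, Pamr1, Miat, Meg3, Ptn, Mrc1, Itm2a, Lum and Dnm3os. Osteoglycin (Ogn), a small leucine-rich proteoglycan, was at 0.714 and 0.476 CPM in epidermis and at 567 and 590 CPM in dermis (log2 fold change -9.90, SE 0.27). Lumican (Lum), a proteoglycan that regulates collagen fibrils, was at 25.8 and 24.4 CPM against 2316 and 2068 CPM (-6.45, SE 0.22). Meg3, a long noncoding RNA of an imprinted locus on chromosome 12, was at 6.35 and 6.02 CPM against 1005 and 959 CPM (-7.31, SE 0.19). Mrc1, the mannose receptor of tissue macrophages, was at 1.47 and 2.26 CPM against 240 and 224 CPM (-6.97, SE 0.28). The dermal levels of some were not shared by the further 3 wild-type wound center dermis libraries of the series, which carry the same labels. With all 7 libraries scaled together, Matn4, a matrix adaptor protein, was at 85.8 and 171 CPM in the dermis libraries used here and between 4.79 and 22.9 CPM in the further 3. On the same scale Dnm3os, which hosts microRNAs, was at 199.9 and 155 CPM here and between 13 and 34.2 CPM there. Lum was at 2579 and 2301 CPM here and between 1979 and 2079 CPM there, and Mrc1 at 267 and 249.6 CPM here and between 188 and 243 CPM there.

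Keratins of the stratified epidermis and keratins of the injured epidermis were both higher in epidermis. Keratins 5 and 14 are basal, keratins 1 and 10 belong to the layers above, and keratins 6, 16 and 17 are induced by injury. Krt1 was at 98825 and 92738 CPM in epidermis and at 86.9 and 111 CPM in dermis (9.92, SE 1.19), and Krt5 at 8889 and 8759 CPM against 93.7 and 17.6 CPM (7.31, SE 0.98). The injury keratins Krt6a (2975 and 4521 CPM against 32.2 and 18.6 CPM), Krt6b (4840 and 6512 CPM against 7.50 and 7.62 CPM) and Krt16 (7469 and 11084 CPM against 20.7 and 18.4 CPM) all passed the test. In each of these the epidermis libraries lay above the dermis libraries with no overlap. All 7 tested interfollicular keratins rose, as did 4 of the 6 genes in the list of wound-activated keratins. Krt75 and Krt79, which that list also holds but which are not among keratins 6, 16 and 17, were not called.

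Of 29 tested precursors of the cornified envelope, the protein shell beneath the plasma membrane of the dead cell, 28 rose in epidermis (median 11.58, or 10.18 with genes at the floor set to their bound). Loricrin (Lor) was at 4645 and 4247 CPM against 0 and 2.94 CPM (11.58, SE 1.47, edgeR FDR 0.00226). Involucrin (Ivl) was at 2299 and 2357 CPM against 0 and 5.15 CPM (9.83, SE 1.60). Repetin (Rptn) was at 10548 and 10482 CPM against 0.178 and 15.2 CPM (10.43, SE 1.90). In these the dermis libraries differed from each other: the summed level of the 29 precursors was 27.6 CPM in the one and 109 CPM in the other, while Krt14 was higher in the former. All 18 genes for crosslinking, proteolysis and lipid processing rose (median 8.96), among them Casp14, the protease of cornification (5218 and 5266 CPM against 3.38 and 13.8 CPM), and Klk7, which cleaves the links between cornified cells (4031 and 4535 CPM against 0.0356 and 33.1 CPM).

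Several of these genes sit together in the genome. The windows named were chosen after their values were seen, for holding members of 1 gene family. In chr3:92000001-93000000 (GRCm38), which holds the late cornified envelope and small proline-rich genes, 41 of 42 tested genes were at least 4-fold higher in epidermis, where 13.5% of all tested genes were. In the window that follows, of the same length, 9 of 10 were, among them Flg2, Hrnr and Rptn. The window of the same length on chromosome 7 from 43000001 held 11 kallikreins among its 12 such genes of 24 tested, with 5 toward dermis. One of chromosome 1 from 107000001 held 9 of 9 tested genes, all of them serpins of clade B. Another of chromosome 7, from 19000001, held 12 of 38 toward epidermis and 3 toward dermis, and these were of mixed families. Toward dermis, 9 of 15 and 12 of 26 tested genes of the neighbouring windows chr11:82000001-83000000 and chr11:83000001-84000000 were at least 4-fold higher, among them the chemokines Ccl2, Ccl7, Ccl8 and Ccl11 in the former and Ccl3, Ccl5, Ccl6 and Ccl9 in the latter, where 18.4% of all tested genes were. On chromosome 6, 10 of 21 genes from 48000001, with 6 Gimap genes of lymphoid and vascular cells, and 10 of 25 from 124000001, with 5 genes for complement C1 proteases, were higher in dermis. Other windows with many such genes were mixed: chr7:45000001-46000000 had the most toward dermis, 14 of 51 tested, with 9 toward epidermis, and chr11:69000001-70000000 had 10 of 53 with 8 toward epidermis. Members of such families resemble each other in sequence, and by default htseq-count leaves out reads that match several places, so single values of near-identical copies are uncertain.

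The upstream sequences of 3 envelope genes from the chromosome 3 cluster are shown beside those of 2 collagen genes, since their tissues of expression were opposite. They were chosen after the values and sequences were seen. Sprr1b has another annotated start upstream. Each is the 250 bases before the annotated start, 5′ to 3′ along the gene (RefSeq, GRCm38.p6), with capitals where a motif matched on either strand. The AP-1 motif was searched as TGANTCA. The TATA box was searched with the letters TATAAA. For the CCAAT box the letters of its name were used. The AP-2 motif was searched as GCCNNNGGC, and the CArG box by its usual form.
Lor, chr3:92083143-92083392, minus strand: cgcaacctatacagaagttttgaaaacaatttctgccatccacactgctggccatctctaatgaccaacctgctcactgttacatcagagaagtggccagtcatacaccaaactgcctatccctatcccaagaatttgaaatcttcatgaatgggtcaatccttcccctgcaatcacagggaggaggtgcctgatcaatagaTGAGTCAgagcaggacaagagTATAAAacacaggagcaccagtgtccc
Sprr1a, chr3:92485882-92486131, minus strand: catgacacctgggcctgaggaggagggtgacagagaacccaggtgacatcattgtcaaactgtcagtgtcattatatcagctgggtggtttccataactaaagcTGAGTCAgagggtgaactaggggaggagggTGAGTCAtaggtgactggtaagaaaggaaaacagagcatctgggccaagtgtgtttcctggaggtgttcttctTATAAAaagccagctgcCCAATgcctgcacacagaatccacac
Sprr1b, chr3:92438780-92439029, minus strand: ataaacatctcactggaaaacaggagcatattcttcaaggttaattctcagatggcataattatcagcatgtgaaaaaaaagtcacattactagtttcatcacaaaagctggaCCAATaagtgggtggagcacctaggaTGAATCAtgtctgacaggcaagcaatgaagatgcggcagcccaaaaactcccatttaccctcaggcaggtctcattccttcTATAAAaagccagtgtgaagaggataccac
Col1a2, chr6:4505368-4505617, plus strand: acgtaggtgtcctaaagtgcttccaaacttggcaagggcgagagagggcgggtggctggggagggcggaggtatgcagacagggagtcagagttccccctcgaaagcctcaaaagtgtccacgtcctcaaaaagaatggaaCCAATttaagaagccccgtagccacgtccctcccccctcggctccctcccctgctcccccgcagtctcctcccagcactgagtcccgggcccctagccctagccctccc
Col3a1, chr1:45311288-45311537, plus strand: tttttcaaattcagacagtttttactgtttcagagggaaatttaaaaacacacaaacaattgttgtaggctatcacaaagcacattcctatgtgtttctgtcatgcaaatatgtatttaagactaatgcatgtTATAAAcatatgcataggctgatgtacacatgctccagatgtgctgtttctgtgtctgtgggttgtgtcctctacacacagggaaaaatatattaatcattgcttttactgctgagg
The 3 envelope genes each held an AP-1 motif and a TATA box, with the AP-1 match beginning 48 bases before the start in Lor, 146 and 116 bases in Sprr1a and 111 bases in Sprr1b. The TATA match began at 27 bases in Lor, 43 in Sprr1a, 30 in Sprr1b and 117 in Col3a1. A CCAAT box was in Col1a2 at 109 bases, and also in Sprr1a at 26 and in Sprr1b at 137. Neither collagen gene held the AP-1 letters in this window. Over all genes, 9.01% of 1798 promoters of genes at least 4-fold higher in epidermis held an AP-1 motif (95% Wilson interval 7.77 to 10.4), 5.99% of 2488 promoters of those higher in dermis did (5.12 to 6.99), and 5.13% of all 13792 promoters of tested genes did. The AP-2 motif was in 20.1%, 20.3% and 20.2% of the same sets, and the TATA box in 8.95%, 8.60% and 6.91%. A match is a description of the letters, and the promoters of clustered family members resemble each other.

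The junctions that hold the epidermis together were almost all epidermal. Of 15 desmosome genes, 14 rose (median 8.38), and Pkp2, a plaque protein of other tissues, was higher in dermis at levels of 0.333 to 2.63 CPM. Desmoplakin (Dsp), which links desmosomes to keratin, was at 6635 and 6617 CPM against 16.7 and 23.2 CPM (8.38, SE 0.38). All 11 tested tight junction genes rose (median 9.90, or 7.10 with genes at the floor at their bound), with Cldn1 at 439 and 471 CPM against 7.54 and 18.7 CPM, and Cldn4 at 246 and 274 CPM against 0 in both dermis libraries. Of 9 connexins, 6 rose and 3 were higher in dermis, against 29.3% and 26.8% of all genes. Gjb2 was at 2182 and 2901 CPM against 3.31 and 0.0381 CPM, and Gja1 was shared, at 2758 and 2910 CPM against 387 and 327 CPM. Gja4 and Gja5, connexins of arteries, and Gjc1 were the dermal ones, with Gja5 at 0 in epidermis and at 23.1 and 37.3 CPM in dermis. Classical cadherins divided between the layers, with Cdh1 at 901 and 1024 CPM against 4.48 and 7.17 CPM and Cdh2 at 1.62 and 1.33 CPM against 44.1 and 32.4 CPM.

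**Figure D3:**
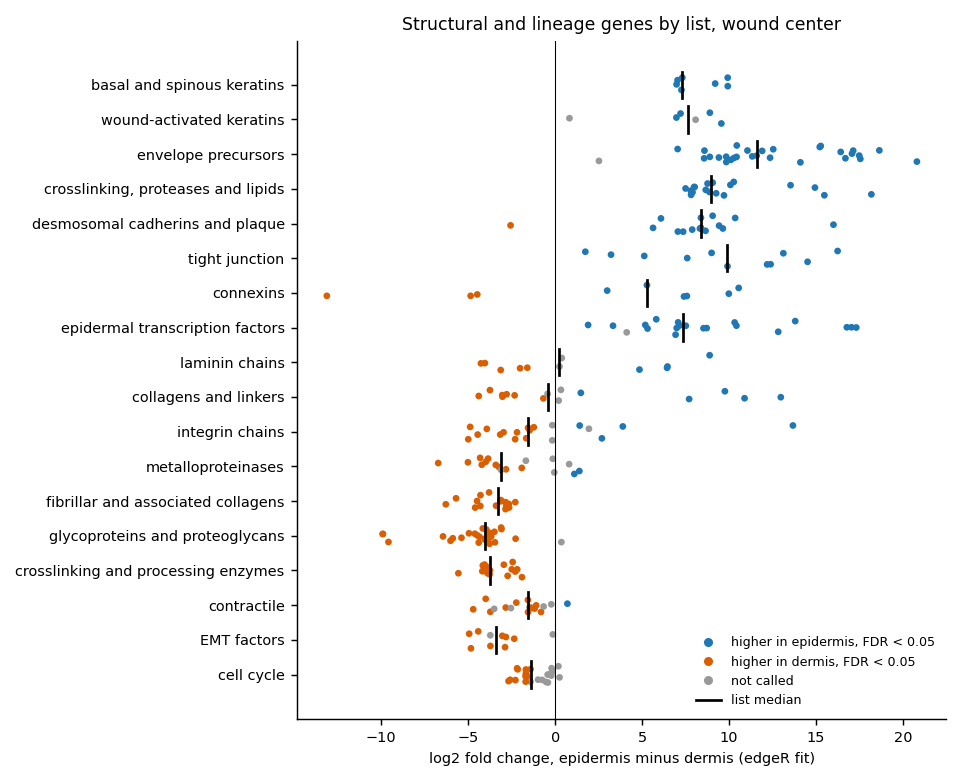
Log2 fold change (epidermis minus dermis) of every tested gene in 18 lists, with blue for genes higher in epidermis and orange for genes higher in dermis at an FDR below 0.05, grey for genes not called and a black bar at each list median. Junction and cornification lists lie to the right, matrix lists to the left, and laminins, basement membrane collagens and integrins spread to both sides of 0.

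Genes of the basement membrane, the sheet between both tissues, were divided by chain. Lama3 and Lamb3, chains of a laminin that anchors basal keratinocytes, were epidermal: Lama3 stood at 287 and 336 CPM against 12.8 and 8.84 CPM (4.84, SE 0.25) and Lamb3 at 220 and 218 CPM against 2.03 and 2.97 CPM (6.45, SE 0.25). Lama2, Lama4, Lamb1, Lamb2 and Lamc1 were higher in dermis, and Lama5, at 50.9 and 50.2 CPM against 41.5 and 43.9 CPM, was not called. Of the collagens and linkers, Col17a1 (1411 and 1315 CPM against 12.4 and 0.648 CPM), Col4a5, Col4a6, Fras1 and Frem2 rose in epidermis, and Col4a1, Col4a2, Col18a1, Nid1, Nid2, Hspg2 and Npnt were higher in dermis. Col7a1, which forms the anchoring fibrils, was at 843 and 725 CPM in epidermis and at 1320 and 803 CPM in dermis, and the groups overlapped (-0.44, SE 0.28, edgeR FDR 0.231). Of 19 integrin chains, 4 rose in epidermis (Itga3, Itga6, Itgb4 and Itgb6) and 12 were higher in dermis. Over all genes the shares were 29.3% and 26.8%. The hemidesmosome chain Itgb4 was at 147 and 159 CPM against 27.9 and 19.6 CPM, and the collagen receptor chain Itga11 at 5.13 and 5.52 CPM against 180 and 161 CPM.

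The interstitial matrix was dermal with little exception. All 16 fibrillar and associated collagens (median -3.28), 26 of 27 glycoproteins and proteoglycans (median -4.04) and all 16 enzymes of crosslinking and processing (median -3.76) were higher in dermis, and Fbln1 was the gene not called. Col1a1 stood at 2457 and 2106 CPM in epidermis and at 26755 and 21495 CPM in dermis (-3.40, SE 0.48, edgeR FDR 0.00325), and Col3a1 at 2351 and 1919 CPM against 45760 and 38595 CPM (-4.30, SE 0.64). Periostin (Postn), a matricellular protein of healing dermis, was at 862 and 704 CPM against 18424 and 13496 CPM (-4.35, SE 0.44). Lysyl oxidase (Lox), which crosslinks collagen and elastin, was at 16.5 and 16.6 CPM against 772 and 798 CPM (-5.57, SE 0.16). The dermis libraries lay above both epidermis libraries for each of these.

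Genes for the degradation of matrix were called in both directions, and most of the metalloproteinases called were higher in dermis. Of 17 tested metalloproteinases, 10 were higher in dermis, where 26.8% of all genes were. They included Mmp2 (66.6 and 49.9 CPM against 763 and 926 CPM) and Mmp14, which activates it (184 and 167 CPM against 1974 and 1769 CPM). Mmp9 (66.6 and 74.6 CPM against 23.0 and 30.9 CPM) and Mmp10 (13.2 and 20.3 CPM against 7.68 and 7.93 CPM) were higher in epidermis, and Mmp10 only just passed. Against the further 3 dermis libraries both signs turned. The log2 fold changes were then -1.79 (SE 0.43) for Mmp9 and -2.03 (SE 1.12) for Mmp10, which was not called there. Mmp13, at 53.9 and 91.7 CPM against 74.0 and 86.4 CPM, was not called. The inhibitors Timp1, Timp2 and Timp3 were higher in dermis. In the plasminogen system, the activator Plau (115 and 115 CPM against 34.0 and 50.7 CPM) and Serpinb2 (777 and 1050 CPM against 16 and 3.24 CPM) rose in epidermis, and Plat, Plaur and Serpine2 were higher in dermis.

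Of 17 contractile genes, 11 were higher in dermis (median -1.56), where 26.8% of all genes were. Acta2, the smooth muscle actin of myofibroblasts, stood at 54.5 and 57.0 CPM in epidermis and at 190 and 139 CPM in dermis (-1.56, SE 0.20, edgeR FDR 0.00221), and Tagln at 12.6 and 6.85 CPM against 159 and 99.9 CPM (-3.73, SE 0.41). Tpm2 went the other way, at 219 and 283 CPM against 162 and 146 CPM (0.70, SE 0.18), although its sign turned when libraries were scaled by size alone or when the further 3 dermis libraries stood in for these.

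Twist1, the factor whose loss from keratinocytes the study examined, was mainly a dermal transcript. It was at 15.4 and 13.1 CPM in the epidermis libraries and at 85.9 and 117 CPM in the dermis libraries (log2 fold change -2.83, SE 0.23, edgeR FDR 0.000606), and the groups did not overlap. Its epidermal level was 15.1% and 12.9% of the dermal mean, above the medians of the fibroblast markers given above and inside their range. Of 10 tested mesenchymal factors, 8 were higher in dermis (median -3.38), with Zeb1 at 3.51 and 3.40 CPM against 88.9 and 124 CPM, Prrx1 at 22.1 and 18.6 CPM against 283 and 255 CPM, and Twist2 at 10 and 10.2 CPM against 55.9 and 47.5 CPM. Snai2, a relative of Snai1 that basal keratinocytes also use, was at 18.3 and 17.1 CPM against 11 and 28.0 CPM and was not called. The paper listed Twist1 as higher in center than in margin epidermis and stained its protein in the epithelial placode, which these RNA levels do not measure. It also reported little epidermal Twist1 and fewer new follicles after deletion in keratinocytes, and more follicles after Twist1 overexpression in wounds. How much of the Twist1 level in these epidermis libraries came from keratinocytes was not tested.

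Transcription factors of the epidermal lineage were higher in epidermis in 19 of 20 cases (median 7.33, or 7.11 with genes at the floor at their bound), and Ovol2 was not called. Trp63, which maintains basal keratinocytes, was at 403 and 437 CPM against 1.17 and 5.49 CPM (6.99, SE 0.75). Klf4, a factor of barrier formation, was at 1024 and 999 CPM against 26.1 and 25 CPM (5.31, SE 0.17). The grainyhead factors Grhl1 (550 and 543 CPM) and Grhl3 (342 and 409 CPM) were at 0 in both dermis libraries, which makes them at least 4782-fold and 3283-fold higher.

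Of 15 tested Wnt ligands, 5 were higher in epidermis and 5 in dermis, shares near those of all genes (29.3% and 26.8%), so the counts are not particular to the family and the values of single ligands are given. Wnt3 (47.0 and 40.4 CPM), Wnt3a (11.5 and 8.23 CPM) and Wnt7b (76.0 and 68.3 CPM) were at 0 in both dermis libraries. Wnt4 was at 298 and 252 CPM against 6.33 and 0.343 CPM (6.35, SE 1.14), and Wnt10a at 42.8 and 43.8 CPM against 1.81 and 2.10 CPM (4.47, SE 0.27). These 5 were the ligands higher in epidermis. Wnt2, Wnt2b, Wnt5a, Wnt5b and Wnt9a were the 5 higher in dermis, and the difference was small for Wnt5a, which signals mostly without beta-catenin (57.1 and 58.7 CPM against 103 and 110 CPM, -0.88, SE 0.14). Wnt10b, at 12.7 and 10.9 CPM against 2.99 and 6.06 CPM, just missed the threshold (edgeR FDR 0.0546).

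Of 19 tested Wnt receptors and coreceptors, 5 were higher in epidermis, 8 in dermis and 6 were not called, the former share being near the 29.3% of all genes. Fzd10 (72.9 and 61.6 CPM, 0 in both dermis libraries), Fzd5, Fzd6, Lrp5 and Lgr6 rose in epidermis, and Fzd1 (19.8 and 15.0 CPM against 157 and 172 CPM), Fzd2, Fzd3, Fzd4, Ror2, Lgr4, Lgr5 and the receptor ligand Rspo3 were higher in dermis. Lgr5, a stem cell marker of the hair follicle in intact skin, was at 0.0964 and 0.381 CPM in epidermis and at 52.3 and 25.4 CPM in dermis (-7.40, SE 0.72, edgeR FDR 0.00089). Of 12 tested inhibitors, 3 were higher in epidermis, 5 in dermis and 4 were not called, where 29.3% and 26.8% of all genes were higher. The secreted Dkk2, Dkk3, Sfrp1, Sfrp2 and Sfrp4 were higher in dermis, with Sfrp2 at 3.01 and 2.78 CPM against 110 and 99.0 CPM. The membrane proteins Rnf43, Znrf3 and Kremen2 rose in epidermis. Axin2, a common target of the pathway, was at 27.5 and 23.2 CPM in epidermis and at 47.2 and 16.4 CPM in dermis, so the groups overlapped, and Lef1 was at 1.98 CPM or less in all 4 libraries.

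**Figure D4:**
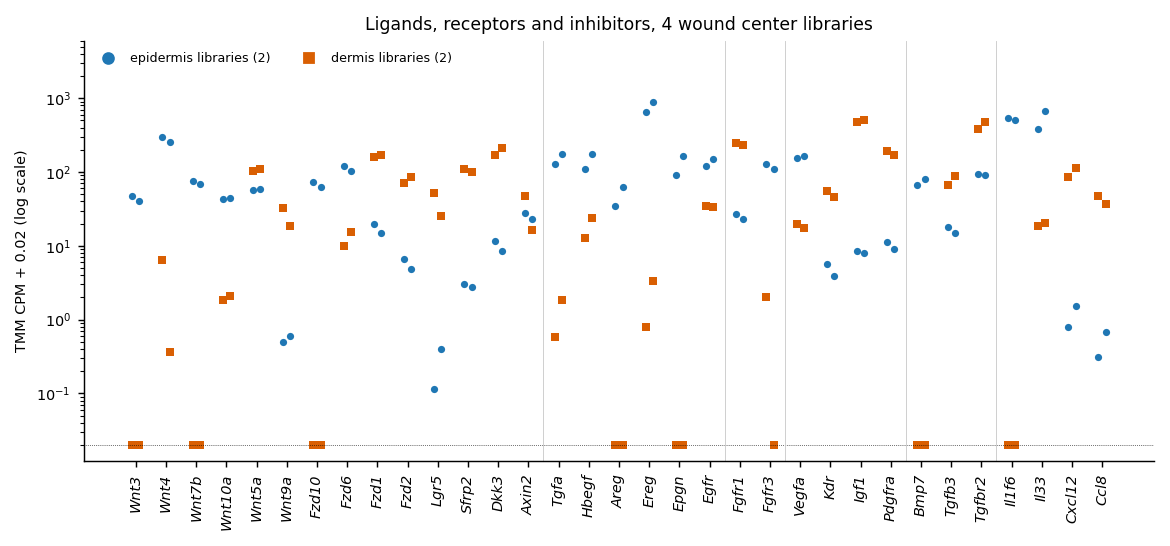
TMM CPM (log axis, 0.02 added) of ligands, receptors and inhibitors in the 2 epidermis libraries (blue circles) and the 2 dermis libraries (orange squares), with a dotted line at 0 counts and thin lines between families. Wnt3, Wnt7b, Fzd10, Areg, Epgn, Bmp7 and Il1f6 are at 0 in both dermis libraries, and both tissues overlap at Axin2.

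Several markers of new follicles were at or near 0. Shh, Fgf20, Dkk4 and Foxi3, which mark the placode, had 0 counts in all 4 libraries, and Edar and Lhx2 stayed below the filter, with no value over 1.24 CPM. Edaradd, Bmp2, Cdh3, Krt17, Sox9 and Lgr6 rose in epidermis, and Ctgf was higher in dermis, of 10 tested. Over all genes 29.3% and 26.8% were. Of the list for dermal condensate and papilla, 13 of 17 tested genes were higher in dermis, where 26.8% of all genes were. They included Crabp1 (84.2 and 72.1 CPM against 324 and 237 CPM) and Cxcr4. Prdm1, which differentiating keratinocytes also use, rose in epidermis (146 and 147 CPM against 14.9 and 20.3 CPM). Sox2 was at 0 in epidermis and at 0.462 and 2.97 CPM in dermis. Corin and Foxd1 had 0 counts throughout, and Alx4 had 1 count in 1 library. The hedgehog target Gli1 (0.212 and 0.428 CPM against 7.61 and 11.1 CPM) was higher in dermis, and Ptch1 was not called.

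Of 10 tested ligands of the EGF receptor family, 6 rose in epidermis, 0 rose in dermis and 4 were not called, where 29.3% of all genes were higher in epidermis. The 6 were Ereg (653 and 885 CPM against 0.782 and 3.35 CPM), Tgfa (127 and 173 CPM against 0.569 and 1.83 CPM), Hbegf, Areg, Epgn and Nrg4. Areg and Epgn were at 0 in both dermis libraries. The receptors Egfr (122 and 149 CPM against 34.3 and 33.5 CPM), Erbb2 and Erbb3 rose in epidermis too. Receptors for fibroblast growth factors were split, with Fgfr3 at 129 and 109 CPM against 1.99 and 0 CPM and Fgfr1 at 26.6 and 23.1 CPM against 247 and 233 CPM.

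Among other growth factors, 8 of 15 tested ligands of the PDGF, HGF, IGF and VEGF families and 10 of their 14 receptors were higher in dermis. The share of all genes higher in dermis was 26.8%. Vegfa, which drives vessel growth, was at 156 and 167 CPM in epidermis against 19.9 and 17.5 CPM in dermis (3.11, SE 0.17), and its receptor Kdr at 5.71 and 3.83 CPM against 55.0 and 45.6 CPM (-3.39). Igf1 (8.60 and 7.85 CPM against 478 and 505 CPM) and Igf2 (0.405 and 0.476 CPM against 56.0 and 139 CPM) were higher in dermis. Bmp7 was at 67.2 and 81.2 CPM in epidermis and 0 in dermis, and the receptors Bmpr1a and Bmpr2 were higher in epidermis. Tgfb3 (18.1 and 14.7 CPM against 67.6 and 88.0 CPM) and its receptor Tgfbr2 (93.0 and 89.8 CPM against 382 and 480 CPM) were higher in dermis, and Tgfb1 was not called. Of 12 tested Notch genes, 7 rose in epidermis, where 29.3% of all genes did. Among them were Notch1, Notch2, Notch3, Jag2, Hes1 and the feedback inhibitor Nrarp (164 and 177 CPM against 15.0 and 18.6 CPM). Dll4 and Notch4 of vessels, Hey1 and Heyl were higher in dermis, where 26.8% of all genes were.

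Several alarmins and cytokines passed the test in either direction. Il1f6 (546 and 501 CPM) and Il1f8 (513 and 501 CPM), interleukin-1 family agonists of epithelia, were at 0 in dermis, and Il1f9 was at 399 and 390 CPM against 0 and 0.839 CPM. Il33 stood at 380 and 671 CPM against 18.5 and 20.4 CPM (4.76, SE 0.34). S100a8 (112 and 203 CPM against 0.320 and 2.44 CPM) and S100a9 (200 and 298 CPM against 1.85 and 3.20 CPM), injury proteins of keratinocytes and neutrophils, rose in epidermis. The chemokines Cxcl12 (0.771 and 1.52 CPM against 85.1 and 112 CPM), Ccl2, Ccl7, Ccl8, Ccl11 and Cxcl5 were higher in dermis, and Cxcl14 and Ccl20 in epidermis. In all, 12 of 27 tested interleukins and chemokines rose in epidermis and 7 in dermis, where 29.3% and 26.8% of all genes did. The list median less that of all genes was 1.55, and it was 0.36 with all 5 wild-type center dermis libraries, 0.20 with the other 3 alone and -0.44 with a minimum of 10 counts in every library.

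Of 24 cell cycle genes, 12 were higher in dermis, 0 were higher in epidermis and 12 were not called (median -1.42), where 26.8% of all genes were higher in dermis. At the wound margin the median of the same list was -0.19. Mki67, which marks cycling cells, was at 37.3 and 37.9 CPM in epidermis and at 158 and 178 CPM in dermis (-2.16, SE 0.15, edgeR FDR 0.000391), and Cdk1 at 6.33 and 7.06 CPM against 41.0 and 45.0 CPM (-2.68, SE 0.23). Pcna, at 28.1 and 29.1 CPM against 28.8 and 19.2 CPM, and Mcm7 were not called. Immediate early and heat shock genes, which also respond to handling of the tissue, moved with the tissue: 12 of 14 were higher in epidermis (median 3.05), with Fos at 129 and 160 CPM against 2.49 and 16.6 CPM, and Atf3 was higher in dermis. The part of handling in the other results was not tested.

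The same contrast was measured at the wound margin in 2 further libraries of each tissue, where the labels again pair paired-end epidermis with single-end dermis. The interaction of tissue and region was tested over all 8 libraries, which were scaled together. Of 15531 genes, 519 (3.34%) had a positive interaction (epidermis relative to dermis was higher at the center than at the margin) and 21 (0.135%) a negative one. The positive ones were of 2 kinds: in 357 the difference at the center was above 0 (toward epidermis), and in 162 it was below 0. Leaving out single libraries moved the counts to between 162 and 1200 positive and between 1 and 143 negative genes. The keratinocyte markers had a median difference of 7.84 at the center and 4.54 at the margin, with a positive interaction in 10 of 16. The fibroblast markers had medians of -4.09 and -6.29, with a positive interaction in 5 of 16, and the endothelial markers -4.33 and -8.18, with 6 of 12. The endothelial receptor Kdr was at 5.88 and 3.93 CPM in center epidermis and at 0.153 and 0 CPM in margin epidermis, with dermis between 46.2 and 55.9 CPM in all 4 dermis libraries. Acta2 was at 56.2 and 58.4 CPM in center epidermis and at 6.71 and 7.96 CPM in margin epidermis (interaction 3.16, SE 0.45, edgeR FDR 0.00433). Twist1 was at 15.9 and 13.4 CPM in center epidermis and at 6.64 and 1.81 CPM in margin epidermis, and its interaction did not pass (1.75, SE 0.62, FDR 0.18). The interaction takes in the dermis too, so it differs from the paper's comparison of center with margin epidermis. Mki67 had a negative interaction (-2.40, SE 0.47, FDR 0.0194), with 38.4 and 38.8 CPM in center epidermis and 91.3 and 194 CPM in margin epidermis.

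Spiny mouse wounds at day 21 gave an epidermis against dermis contrast in which both tissues have the same read type, with 2 libraries each. They differ in species, day and method of separation (trypsin), and their reads were counted on the lab mouse genome. Of 14966 genes, 4398 (29.4%) were higher in spiny epidermis and 5011 (33.5%) in spiny dermis. Of the 1770 genes at least 4-fold higher in lab mouse center epidermis that could be tested there, 1386 (78.3%) were called in the same direction and 64 (3.62%) in the opposite one. Of the 2387 at least 4-fold higher in dermis, 1912 (80.1%) were called in the same direction and 108 (4.52%) in the opposite one. Across 13263 genes tested in both, Pearson's r of the differences was 0.673, a description across genes, which are not independent replicates. All 16 fibroblast markers were higher in spiny dermis, with a median of -9.00, and all 16 keratinocyte markers higher in spiny epidermis, with a median of 5.47. The cell cycle list had a median of 0.05 there, with 4 genes higher in epidermis and 2 in dermis. Twist1 stood at 1.06 and 0.573 CPM in spiny epidermis and at 325 and 465 CPM in spiny dermis (-8.85, SE 0.39).

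**Figure D5:**
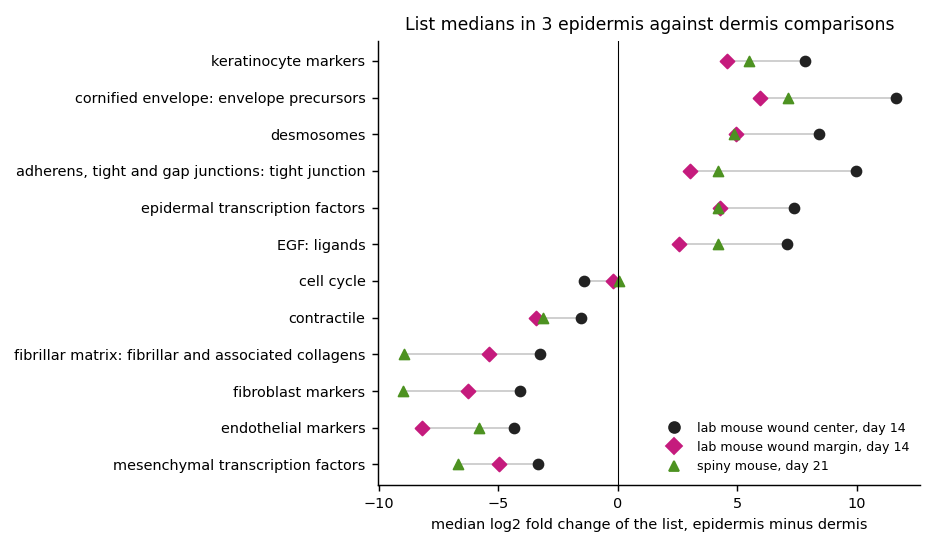
Median log2 fold change (epidermis minus dermis) of 12 lists at the lab mouse wound center (circles), at the lab mouse wound margin (diamonds) and in spiny mouse wounds at day 21 (triangles), without error bars because the medians are descriptions. Epidermal lists lie farthest to the right at the center, where several members are at 0 in dermis and their fitted values are not bounded, and the fibroblast markers run from -4.09 at the center to -9.00 in spiny mice.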

How the data were processed

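RNA from 4 lab mouse wound libraries (75 bp reads, NextSeq) was analysed as deposited by the authors: counts of reads per gene symbol, 24500 symbols a file, with the 5 summary lines of the counter dropped. Per the labels and the study's methods, reads were aligned to mm10 with STAR (2.4.1d in the submitters' processing notes) and counted on RefSeq genes with htseq-count 0.6.0, lab mouse libraries being strand-specific. Read type differed by tissue. By default htseq-count leaves out reads that match several places, and the settings used are not given in the sources used here. Of the total lines, 61.6% to 68.0% fell on genes in these 4 libraries.

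The deposited counts were tested with edgeR 4.0.16 (glmQLFit, glmQLFTest), TMM scaling, filterByExpr and a prior count of 0.125, with groups from the labels. Genes were called at a Benjamini-Hochberg FDR below 0.05. The SE was taken as the size of the log2 fold change divided by the root of F. Bounds use 3 counts per library, at the shallower library of the low tissue, and cover counting error only, as do intervals. On simulated counts with the same libraries, 88% of genes changed 8-fold, 32% of those changed 4-fold and 2% of those changed 2-fold were recovered. Of the unchanged genes, 7 of 14048 were called. Only 50 genes were changed at each fold size there, evenly up and down, with a common dispersion for all genes. The changed genes were drawn only from those above a minimum mean level, so the rates do not cover lower genes. In the real comparison 56.1% of genes were called, so these rates do not describe it. Positions and promoters came from RefSeq GRCm38.p6. Promoters matched 10849 of 14329 tested genes. DESeq2 1.42.0 was an alternative.

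The members and gene lists were chosen with earlier results of these data known. Named genes were the 12 with the greatest difference in each direction among those called without overlap and with at least 100 CPM in the higher tissue, members of the lists, ligands, receptors and inhibitors with their values, Twist1, and up to 8 genes in each direction of the interaction. The libraries of mice without Twist1 and of other spiny mouse days, 10 files in all, were not used here. Some list members are not reported here.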

Additional observations from a re-analysis of the deposited data

Results flagged for a closer look

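The epidermis against dermis difference was tested for a change between wound center and wound margin with the interaction term of edgeR over 8 libraries. It passed in 519 genes in the positive direction and in 21 in the negative one. The greatest positive values among genes of at least 20 CPM in a group were in genes with 0 or near 0 counts in a center dermis library, so they depend on the prior count and are no measure of size: Prr9 15.34, Padi3 14.62, Tmem45b 14.56, Crnn 14.24, Hrnr 14.20, Pinlyp 13.66, Cnfn 13.39 and Defb6 13.26. Crnn, a cornified layer protein, was at 125 and 144 CPM in center epidermis, 0 in both center dermis libraries, 36.0 and 10.1 CPM in margin epidermis and 8.93 and 12.5 CPM in margin dermis. The greatest negative values were those of Tnxb at -8.79, which stood at 0.0397 and 0.0244 CPM in center epidermis so that its value depends on the prior count too, Kcnj2 at -3.11, Nsg1 at -2.93, Cwc22 at -2.90, Alg12 at -2.49, Malat1 at -2.46, Efemp1 at -2.41 and Mki67 at -2.40. Keratinocyte markers stood at a median of 3.21% and 5.13% of their epidermal level in the margin dermis libraries and at 0.265% and 0.238% in those of the center. Fibroblast markers stood at a median of 6.47% and 5.14% of their dermal level in center epidermis and at 2.07% and 1.14% in margin epidermis. The part of these shares in the interaction was not tested.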

How the results depend on the processing

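Counts of called genes stayed within 1.5 times under RLE, upper quartile, no filter, a minimum of 10 counts, DESeq2, the exact and likelihood ratio tests, the earlier quasi-likelihood estimate, the 8-library fit and the other dermis libraries. Library size alone gave 2437 and 6154, and leaving out 1 library gave 2793 to 5751 higher in epidermis and 2106 to 5242 higher in dermis. Positive interactions numbered 179 with a minimum of 10 counts, 996 with DESeq2, 1372 with the likelihood ratio test and 162 to 1200 leaving out 1 library. Negative ones numbered 33 with RLE, 129 with DESeq2, 113 with the likelihood ratio test, 12 with the earlier estimate and 1 to 143 leaving out 1 library. The cause was not tested.

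The fibroblast marker share was 8.33% and 7.05% as a mean over markers, 3.76% and 2.98% with library size alone, and 5.19% to 6.33% in the second library without dermis replicate 1 or 2. Over all genes called, AP-1 was in 6.08% of epidermis and 5.54% of dermis promoters, with overlapping Wilson intervals (5.38 to 6.85 and 4.85 to 6.33). The TATA box was in 7.06% and 7.64%. In all tested promoters the shares were 5.13% for AP-1 and 6.91% for the TATA box. On the gene's strand alone the TATA box was in 6.40% and 5.23% of the epidermis and dermis sets at least 4-fold apart. The CCAAT box was in 18.1% and 17.7% of them. All tested promoters held these in 4.22% and 19.7% on that strand.

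Many list medians, less that of all genes, changed in size. Of 52, 35 moved beyond their error with the other 3 dermis libraries, 25 with all 5 and 17 with a minimum of 10 counts. Those that follow changed sign. Leaving out 1 library gave -2.81 to 2.76 for neutrophil markers (the latter without dermis replicate 1), -1.37 to 4.22 for blood markers (likewise), -0.51 to 0.18 for T cell markers (the latter without dermis replicate 2) and -0.63 to 0.34 for laminins (below 0 without dermis replicate 1 and, at -0.22, without epidermis replicate 2). With a minimum of 10 counts connexins gave -4.47, laminins -1.60 and interleukins -0.44. Laminins gave -0.070 with all 5 dermis libraries and -0.37 with the other 3. Mmp9 turned to -1.15 and -1.79 and Mmp10 to -1.40 and -2.03 in these 2 settings, and Tpm2 to -0.15 with the other 3 and -0.082 with library size alone. No paired analysis was possible because the labels give no replicate numbers that the tissues share.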
